A study of Drosophila melanogaster with 120 samples.

Results

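The genes described here are early zygotic patterning genes of Drosophila melanogaster, that is, genes that the embryo transcribes from its own genome to lay out the body axes, the segments, the germ layers and the first neural cells, together with genes needed when the blastoderm forms cells. Their transcripts were measured in whole adult flies. The list of 38 genes was chosen by name, with earlier results of these data known. A gene was measured when a probe set of the array was annotated to that gene alone. This gave 32 genes with 33 probe sets, of 18769 probe sets tested, because gt had a pair of probe sets. The other 6 genes, run, slp1, wg, sog, rho and vnd, were not analysed here.

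The series holds 120 arrays, 60 of adult females and 60 of adult males, from 15 hemiclonal lines with 4 independent replicate samples per line and sex. Flies of a hemiclonal line share 1 haploid genome, taken from the outbred laboratory population LHM, while the other haploid genome is a random draw from that population. Females came from LHM mothers, and males from LHM mothers with joined X chromosomes (genotype C(1)DX, y, f), so that the X of a male came from its line. Both sexes were housed on yeasted food for 24 h with LHM flies of the other sex and then kept for 20 h without them. Flies were then sorted under brief CO2 anaesthesia. They were frozen whole 4 h after sorting, at Day 14, as 4-day-old adults. Each sample pooled 6 flies. Values are RMA expression values on the log2 scale, so that a difference of 1 is a doubling.

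In the fly embryo, a first round of patterning is set by RNAs and proteins that the mother places in the egg. The zygotic genes then act in a cascade: gap genes divide the embryo into broad domains, pair-rule genes turn these into stripes, segment polarity and homeotic genes fix the borders and identity of segments, and dorsoventral genes separate mesoderm, neurectoderm and dorsal tissue. Many of these genes are used again later in larval and adult tissues.

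The labelled sex of every array fitted the genes Yp1, Yp2 and Yp3 for yolk proteins and SP and Acp26Aa of the male accessory gland, whose female and male arrays did not overlap. Array medians lay between 5.69 and 5.82 in females and between 6.28 and 6.45 in males, so that the scale itself differed between the sexes. Of 33 probe sets, 1 per gene was used, and 15 of the 32 genes had a female mean under 5. As a guide to the bottom of the scale, genes of the Y chromosome, which these females lack, had female means between 2.90 and 4.61. The upper end was that of Pp1-Y2 alone, and the next highest was kl-2 with 3.28. Of the 32 genes, 13 had a female mean under 4.61, and the lowest, ase with 3.31, lay above 3.28. Female arrays H07 replicate 3 and P22 replicate 2 stood apart, with the lowest median correlations with the other female arrays, and the main results are also given without lines H07 and P22. The 120 arrays were hybridised in batches, but the batch of each array is not given in the sources used here, so that a part of batch in the values below was not tested.

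Most of the genes differed between the sexes, in both directions. Of 32 genes, 20 were higher in females and 11 were higher in males with the false discovery rate, FDR, held at 0.001, by an F test on the 15 differences of line means with Benjamini-Hochberg adjustment over all probe sets. Over the whole array, 60.9% of probe sets were higher in females and 30.5% higher in males, so that these shares were near the background. The genes higher in females differed by 0.22 to 5.23 (median 0.60), and 19 of the 20 were higher in 15 of 15 lines. The genes higher in males differed by -0.50 to -1.64 (median -1.10), in 15 of 15 lines each. In bulk samples of whole flies, fewer cells of a type and less RNA per cell cannot be told apart.

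**Figure D1:**
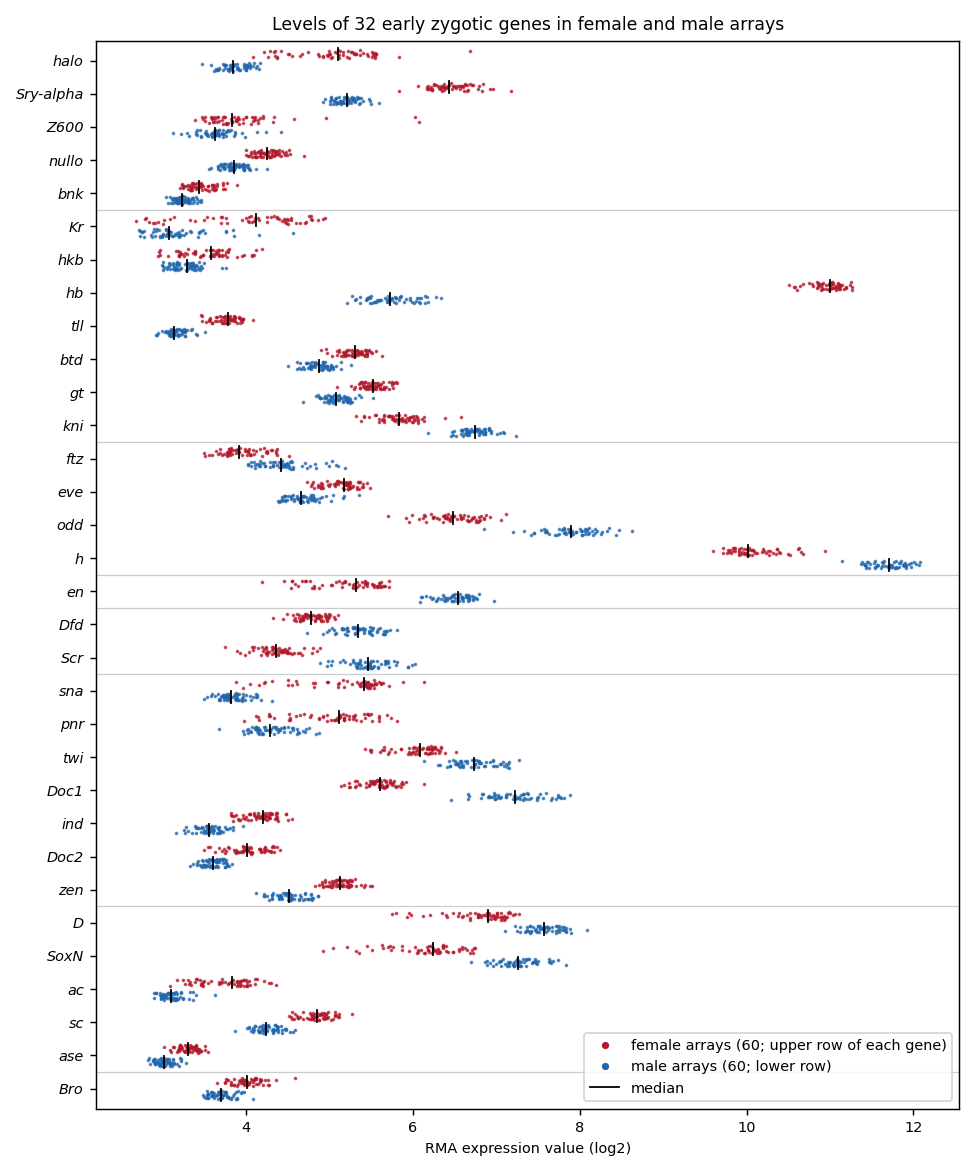
RMA expression value (log2, horizontal axis) of 32 early zygotic genes, grouped by role from blastoderm genes at the top to Bro at the bottom, with 60 female arrays (red) above 60 male arrays (blue) for each gene and the median as a black bar. The female arrays of hb lie between 10.51 and 11.26, far above its male arrays, whereas the female arrays of sna, Kr and halo are spread over more than 2 log2 units.

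Among the gap genes, 6 of 7 were higher in females and 1, kni, was higher in males. The largest difference belonged to hb, a zinc finger gene that acts in the anterior of the embryo and whose mRNA the ovary also loads into the egg. The lowest, median and highest values of hb were 10.51, 11.00 and 11.26 in female arrays, against 5.21, 5.72 and 6.34 in male arrays. The sexes did not overlap, and the difference was 5.23 ± 0.05 (SE over 15 lines, adjusted p = 4.74e-20, F test). kni, a nuclear receptor of the abdominal region, averaged 5.83 in females and 6.74 in males. gt, a leucine zipper repressor, averaged 5.53 in females and 5.09 in males by the probe set used here and 4.75 in females and 4.64 in males by its other probe set, which was not called (adjusted p = 0.0078, F test).

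Of the 4 pair-rule genes measured, only eve was higher in females, while h, odd and ftz were higher in males. h, a repressor of the bHLH class that is also used in later neural development, ranged over 9.60, 10.02 and 10.94 in female arrays, against 11.14, 11.71 and 12.08 in male arrays (lowest, median, highest). Its sexes did not overlap, and the difference was -1.61 ± 0.05 (adjusted p = 3.89e-14, F test). odd, a zinc finger gene, had 5.70, 6.48 and 7.11 in females, against 6.85, 7.90 and 8.63 in males, with a difference of -1.40 ± 0.06 (adjusted p = 1.41e-12, F test) and a small overlap.

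The segment polarity gene en, a homeodomain factor of the posterior compartment, had 4.19, 5.32 and 5.72 in females, against 6.09, 6.54 and 6.97 in males. Its arrays did not overlap, and the difference was -1.30 ± 0.06 (adjusted p = 5.97e-12, F test). Both homeotic genes were also higher in males: Scr averaged 4.36 in females and 5.46 in males, and Dfd averaged 4.79 in females and 5.36 in males.

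The 7 dorsoventral genes were divided, with sna, pnr, zen, ind and Doc2 higher in females and twi and Doc1 higher in males. sna, a repressor that defines the mesoderm, had 3.88, 5.41 and 6.14 in females, against 3.50, 3.82 and 4.31 in males, a difference of 1.33 ± 0.08 (adjusted p = 1.75e-10, F test). The lowest female arrays of sna lay within the male range. Doc1, a T-box gene of the dorsal ectoderm, had 5.14, 5.60 and 6.13 in females, against 6.46, 7.22 and 7.89 in males, a difference of -1.64 ± 0.08 (adjusted p = 9.81e-12, F test) with no overlap.

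Of the 5 blastoderm genes, 4 were higher in females. Sry-alpha, which acts on the actin network while cells form, had 5.83, 6.43 and 7.18 in females, against 4.92, 5.21 and 5.59 in males, a difference of 1.26 ± 0.03 (adjusted p = 5.36e-16, F test) with no overlap. halo, which steers lipid droplets in the early embryo, had 4.08, 5.11 and 6.69 in females, against 3.47, 3.84 and 4.17 in males, a difference of 1.18 ± 0.07 (adjusted p = 4.06e-10, F test). Z600, an inhibitor of mitosis at this stage, was the only gene not called in either direction, with a mean of 3.94 in females and 3.65 in males (adjusted p = 0.0024, F test).

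Of the neural genes, the proneural genes ac, sc and ase were higher in females, and the Sox genes D and SoxN were higher in males, with differences of -0.80 ± 0.07 for D and -1.13 ± 0.07 for SoxN. Bro, the partner protein of Runt, was 0.31 higher in females. Centring each array on its median moved every difference by 0.64 towards females. 21 genes were then higher in females and 7 in males, D and twi were no longer called, and Dfd and ftz had uncalled differences of 0.07 and 0.14 in the other direction.

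Replicate samples of the same line differed more in females than in males for a number of these genes. The pooled variance between replicates within lines was larger in females for 10 of 32 genes and larger in males for 0 (two-sided F test on 45 and 45 degrees of freedom, FDR of 0.001 over all probe sets). Over the whole array, 5.81% of probe sets had a larger spread in females and 2.92% a larger spread in males. Because the genes were chosen with earlier results known, this contrast is no independent result. The median ratio of female to male variance was 1.84 over the 32 genes and 1.13 over all probe sets. The 10 genes came from 5 of the roles: sna, Doc2 and pnr of the dorsoventral genes, halo, Z600 and Sry-alpha of the blastoderm genes, D and ac of the neural genes, hkb of the gap genes, and en. No pair-rule or homeotic gene was among them. Of the 10 genes, ac, hkb, Doc2, Z600, sna, halo and pnr had male means between 3.11 and 4.32. These lie within the 2.90 to 4.61 of Y chromosome genes in females. Only ac and hkb, with 3.11 and 3.26, lie under 3.28, the highest Y gene mean without Pp1-Y2. That guide comes from female arrays, whose scale differed from that of males. Sry-alpha, en and D had male means of 5.21, 6.51 and 7.57. The part of a low male level in these ratios was not tested.

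The largest ratios were those of sna and halo. For sna, the within-line SD was 0.50 in females and 0.16 in males, a variance ratio of 10.2 (adjusted p = 2.14e-10, F test). The 4 female samples of line H12 had 5.52, 5.35, 4.05 and 5.62, against 3.68, 3.63, 3.88 and 3.80 in males of H12. In line P18 the female samples had 6.14, 4.83, 4.23 and 4.60, against 3.77, 3.77, 3.68 and 4.12 in males. So a single female sample stood low in H12 and a single one stood high in P18, whereas male samples of both lines lay close together.

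For halo, the within-line SD was 0.47 in females and 0.15 in males, a ratio of 9.86 (adjusted p = 3.57e-10, F test). Its variance was larger in females in 15 of 15 lines. In line H07 the female samples had 4.51, 5.24, 6.69 and 5.01, against 3.74, 4.10, 4.05 and 3.82 in males. For Z600 the SD was 0.49 in females and 0.17 in males, a ratio of 7.92 (adjusted p = 1.21e-08, F test). Most female arrays of Z600 lay within the range of the male arrays, and few lay far above it: H07 had 3.65, 3.92, 6.03 and 3.51 and P48 had 3.62, 6.07, 4.96 and 3.74 in females, against 3.76, 3.71, 3.58 and 3.74 in males of H07 and 3.63, 3.47, 3.87 and 3.99 in males of P48.

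The other genes called had smaller ratios. ac, a proneural gene of the bHLH class, had an SD of 0.29 in females and 0.12 in males (ratio 5.80, adjusted p = 1.15e-06, F test), and D had 0.35 in females and 0.16 in males (ratio 4.57, adjusted p = 2.83e-05, F test). Doc2, a T-box gene of the Dorsocross group like Doc1, had 0.22 in females and 0.11 in males (ratio 3.94, adjusted p = 0.00017, F test). hkb, a gap gene of the termini, had 0.30 in females and 0.15 in males (ratio 3.81, adjusted p = 0.00025, F test), and Sry-alpha had 0.24 in females and 0.12 in males (ratio 3.79, adjusted p = 0.00026, F test). en and pnr followed with ratios of 3.64 and 3.50. Just outside the threshold lay SoxN (ratio 3.35, adjusted p = 0.0010, F test) and Kr (ratio 3.29, adjusted p = 0.0012, F test), of which Kr had the largest female SD of the 32 genes, 0.62, against 0.34 in males.

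The F test assumes normal deviations, and single samples far from the others weigh heavily in it. An exact sign-flip test over the 15 lines, whose smallest possible p is 6.10352e-05, called no probe set of the array at an FDR of 0.001. At an FDR of 0.05 it called 8 of the 32 genes as more variable in females, against 7.33% of all probe sets. Without adjustment, 14 of the 32 had a larger spread in females at an exact p under 0.05, against 15.9% of all probe sets, and 1, hb, had a larger spread in males, against 10.9%. For sna, the variance was larger in females in 12 of 15 lines and the adjusted p was 0.10 in that exact test. Without lines H07 and P22 the F test called 7 genes, with hkb, Sry-alpha and pnr lost. With arrays centred on their median Doc2 and Sry-alpha lost their calls (adjusted p = 0.0030 and 0.0011, F test) and SoxN and Kr gained one, so that 10 genes were called. With all arrays of 1 replicate number left out, it called 6, 5, 4 and 4 genes without replicates 1, 2, 3 and 4, and halo, sna, Z600 and ac were among them each time.

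**Figure D2:**
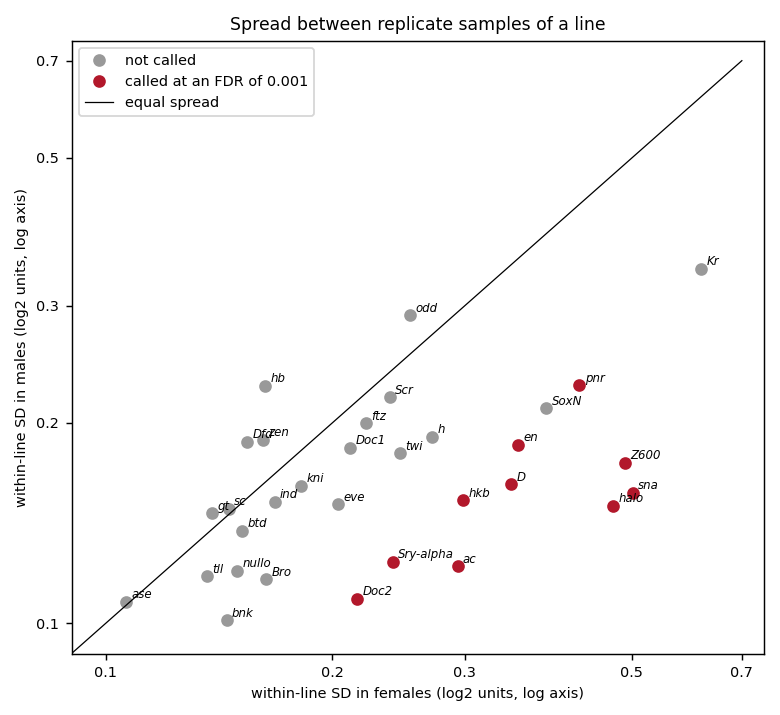
Pooled within-line SD of each gene in females (horizontal) against males (vertical), both in log2 units on log axes. The 10 genes called for a larger spread in females (red) lie below the line of equal spread, from a female SD of 0.22 for Doc2 to 0.50 for sna, and odd, hb, zen, Dfd and gt lie above the line without being called.

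Many of the genes moved together between replicate samples of the same line in females. The deviation of each array from the mean of its line and sex was taken for each gene, and the 496 pairs of genes were correlated over the 60 arrays of a sex, with p-values from 100000 shuffles of arrays within lines, adjusted over the 496 pairs. In females 45 pairs were called at an FDR of 0.001, all with r above 0, and in males 0 pairs were called. Without adjustment, 163 pairs in females and 73 pairs in males had a permutation p under 0.05. A within-line r of at least 0.5 was found for 59 pairs in females (11.9%) and for 1 pair in males (0.202%), against 3.62% of all pairs of probe sets on the array in females and 1.23% in males. The mean r over the 496 pairs was 0.15 in females and -0.002 in males. Here too the genes were chosen with earlier results known, so that the contrast with the array is no independent result.

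The pairs called in females involved 16 genes. A group of 9 genes, D, SoxN, halo, sna, pnr, ac, Kr, en and hkb, each had at least 8 called partners, and 34 of the 36 pairs among them were called. Their r ranged between 0.55 and 0.87 in females and between -0.27 and 0.46 in males. Of the 9 genes, halo, sna, pnr, ac, Kr and hkb had male means between 3.11 and 4.32, low on the scale. The part of that low level in the male r was not tested. This group was picked from the values and holds neural, dorsoventral, gap, segment polarity and blastoderm genes, so that it does not follow a single role. Of the 6 pairs with the largest r, 5 had a permutation p of 1e-05, the smallest that the shuffles can give, and sna and Kr had 2e-05.

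The closest pair was D and SoxN, a pair of related Sox genes of the neurectoderm, with r = 0.87 and rho = 0.79 in females (adjusted permutation p = 0.0002), against r = 0.46 in males (adjusted permutation p = 0.079). Whether probes of the related sequences take up each other's transcript was not tested. The next pairs joined genes of different families. SoxN and Kr had r = 0.84 and rho = 0.81 in females, against r = 0.18 in males. sna and Kr had r = 0.83 and rho = 0.79 in females, against r = 0.13 in males. SoxN and en had r = 0.82 and rho = 0.77 in females, against r = 0.27 in males. sna and en had r = 0.82 and rho = 0.83 in females, against r = 0.05 in males, and SoxN and sna had r = 0.81 and rho = 0.78 in females, against r = 0.12 in males. The r of these 6 pairs in females was also taken without the 2 arrays farthest from the median of the first-named gene. It was 0.87, 0.83, 0.79, 0.80, 0.83 and 0.82 in the same order, so that none of them rested on those 2 arrays. Arrays far out for the second gene alone were not left out.

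Line P13 shows the pattern in single samples. Its 4 female samples had 6.12, 6.94, 6.90 and 5.80 for D, and 5.73, 6.36, 6.39 and 5.04 for SoxN. For Kr they had 3.39, 4.26, 4.38 and 2.68. Replicates 1 and 4 were thus low and replicates 2 and 3 high for all of these genes at once. The male samples of P13 had 7.25, 7.51, 7.47 and 7.81 for D, 7.25, 6.95, 7.63 and 7.68 for SoxN and 3.19, 2.93, 3.46 and 3.26 for Kr, with no such order.

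A second, smaller set was formed by the blastoderm genes Sry-alpha, Z600 and halo. Sry-alpha and Z600 had r = 0.69 in females, against 0.13 in males, halo and Sry-alpha had 0.68 in females, against 0.01 in males, and halo and Z600 had 0.68 in females, against -0.08 in males. All 3 pairs were called in females. Z600 was less close to the larger group, with female r of 0.24 to SoxN, 0.31 to sna and 0.05 to en, none of them called, while halo belonged to both sets. In the P48 and H07 samples with the highest Z600, Sry-alpha was also high: the female samples of P48 had 6.64, 7.18, 6.93 and 6.18 and those of H07 had 6.38, 6.23, 6.96 and 6.30. In the same H07 samples sna had 4.97, 5.49, 4.82 and 5.11 and en had 5.03, 5.34, 4.59 and 5.43, so that replicate 3, the highest for the blastoderm genes, was the lowest for sna and en. This is the female array with the lowest correlation with the others. Without lines H07 and P22 the female r was 0.66 for Sry-alpha and Z600, 0.64 for halo and Sry-alpha and 0.53 for halo and Z600.

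The pair-rule genes h and odd made up a pair of their own. Their r was 0.65 in females (rho = 0.60, adjusted permutation p = 0.0002) and 0.55 in males (adjusted permutation p = 0.018), and it was the only pair with an r of at least 0.5 in males. Neither gene had another called partner in females. The remaining called pairs joined twi to sna, en, SoxN and pnr, hb to sna and ac, and Doc1 to en. Of the 32 genes, 16 were in no called pair, among them eve, ftz, gt, kni, tll, btd, zen, nullo and bnk.

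The number of called pairs fell where arrays were left out. It was 10, 21, 0 and 21 without replicates 1, 2, 3 and 4, each of which leaves 3 arrays per line, although the r of the 6 named pairs stayed between 0.74 and 0.91 in females, with adjusted permutation p between 0.00045 and 0.0050. Without lines H07 and P22, 41 pairs were called.

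**Figure D3:**
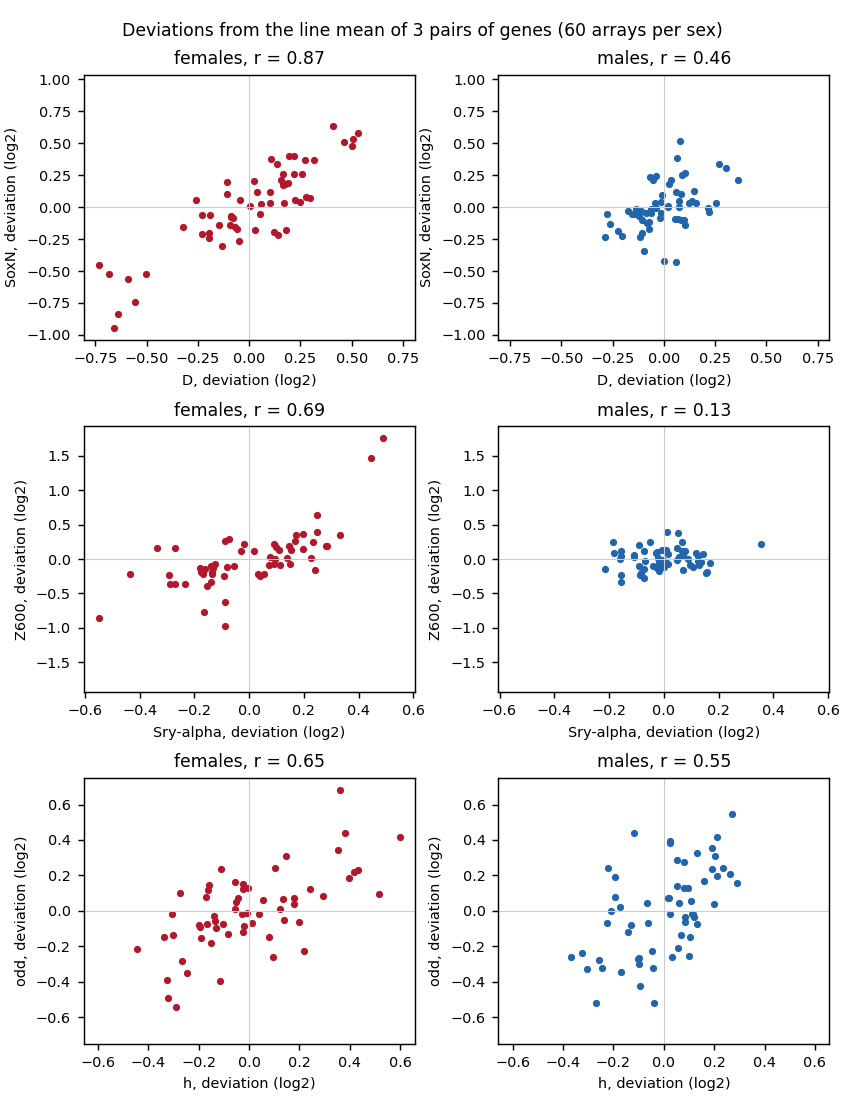
Deviations from the line mean (log2) of 3 pairs of genes, D and SoxN, Sry-alpha and Z600, and h and odd, with 60 female arrays on the left and 60 male arrays on the right of each row. In females r is 0.87, 0.69 and 0.65 from the top row down, and in males 0.46, 0.13 and 0.55.

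Each gene was also set against the mean of the other 31 measured genes, with all deviations scaled to unit SD. This is a description without a test. The median r was 0.44 in females and 0.04 in males. An r of at least 0.5 was found for 12 of the 32 genes in females (37.5%) and for 0 in males, against 0.806% of the probe sets outside the list in females and 0.336% in males. The outside share depended on the setting: without lines H07 and P22 it was 4.79% in females, with 14 of the 32 genes at an r of at least 0.5, and with arrays centred on their median it was 7.65%, with 15 of the 32. sna, halo and D were closest to the others, with r of 0.82, 0.81 and 0.79 in females, against 0.31, 0.06 and 0.13 in males. The lowest were h with -0.32 in females, against 0.26 in males, odd with -0.27 in females, against 0.10 in males, and zen, a homeobox gene of the dorsal side, with -0.19 in females, against 0.29 in males.

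Samples could thus be ordered by the mean deviation of the 32 genes, in SD units, which ranged between -0.95 and 0.96 in females and between -0.48 and 0.34 in males. The highest female samples were P15 replicate 3 (0.96), P18 replicate 1 (0.86), P56 replicate 4 (0.69) and P13 replicate 3 (0.68), each with 25 to 27 of the 32 genes above the mean of its line. The lowest were H12 replicate 3 (-0.95), P56 replicate 2 (-0.79), P48 replicate 4 (-0.73) and P13 replicate 1 (-0.70), with 4, 5, 11 and 5 genes above the mean. High and low samples therefore occurred within the same lines, as in P56 and P13. For the 5 blastoderm genes alone the extreme sample was H07 replicate 3, the array that stood apart from the other female arrays, with a mean deviation of 3.08, followed by P48 replicate 2 with 1.54.

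**Figure D4:**
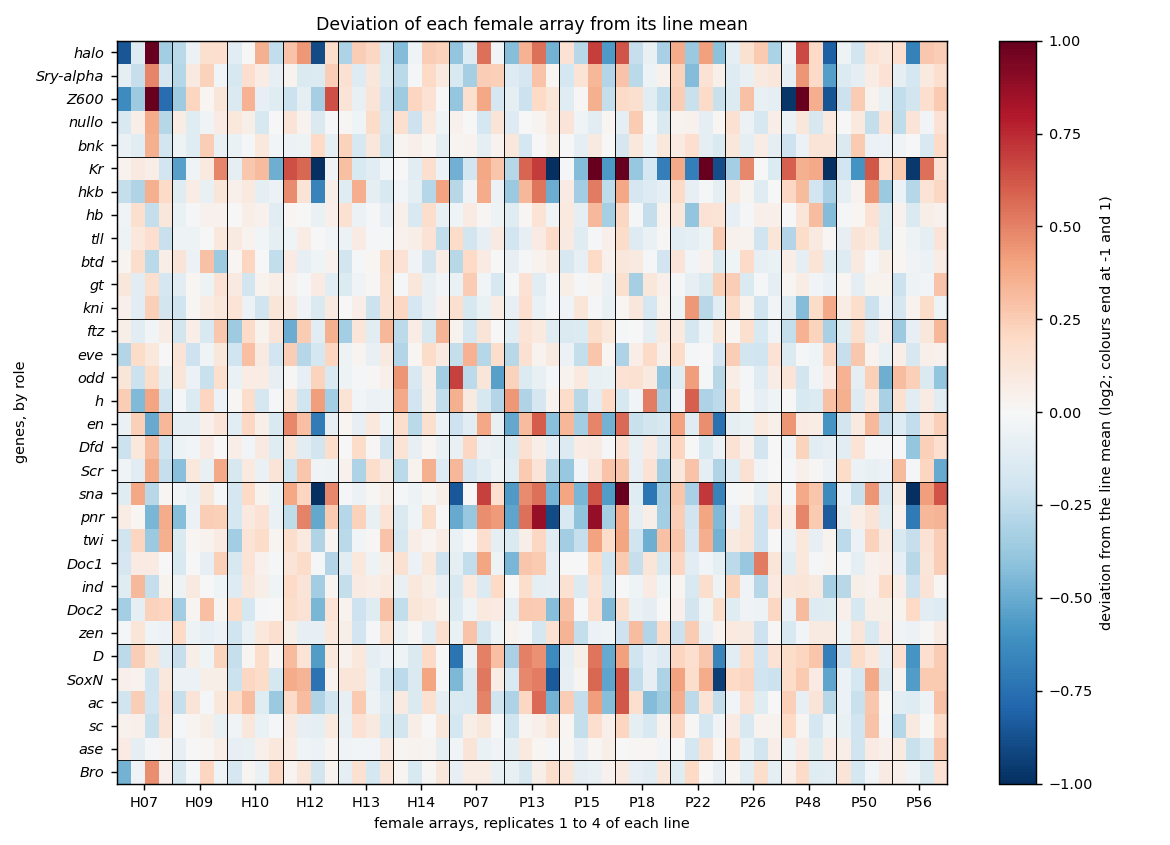
Deviation of each of the 60 female arrays (columns, replicates 1 to 4 of 15 lines) from the mean of its line, in log2 units, for 32 genes (rows, grouped by role). Single columns are red or blue through Kr, hkb, en, sna, pnr, D, SoxN and ac at once, such as H12 replicate 3 in blue and P15 replicate 3 in red, and H07 replicate 3 is red for the blastoderm genes at the top.

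Line differences in females were not called for any of these genes at the main threshold. The line term in females was called for 0 of 32 genes at an FDR of 0.001 (restricted likelihood ratio test), against 8.36% of all probe sets. The moderated test of limma also called 0 of 32, against 8.60% of all probe sets, and 4 of the 32 had an unadjusted p under 0.05, against 28.8% of all probe sets. The largest share of variance between female lines was that of kni, 38.9% (adjusted p = 0.0062, likelihood ratio test), whose line means lay between 5.49 in P07 and 6.20 in P48. At an FDR of 0.05 kni was the 1 gene called. The other probe set of gt, which is not in these counts, had a share of 35.6% in females (adjusted p = 0.013, likelihood ratio test). For sna and halo, which varied so much between replicates, the line took 3.97% and 3.50% of the female variance. Female line means of Kr lay between 3.32 in P07 and 4.60 in H14, and the SD of the 15 line means of sna was 0.27 in females and 0.10 in males. The spread between the 4 replicates also enters these line means. Neither Kr nor sna was called for line in females (adjusted p = 0.42 and 0.60, likelihood ratio tests).

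In males the line term was called for 4 of 32 genes, against 27.3% of all probe sets, and 13 of the 32 had an unadjusted p under 0.05, against 52.2% of all probe sets. These 4 were Doc1 (69.5% of the male variance), ftz (51.7%), twi (49.1%), a bHLH gene of the mesoderm, and eve (45.7%). Without lines H07 and P22 the calls that remained were Doc1 and twi. Leaving out replicates 1, 2, 3 and 4 left 1, 1, 2 and 2 calls, of which Doc1 was one each time.

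The difference between the sexes in line effects, tested by the sex-by-line term, was called for Doc1 (adjusted p = 8.84e-05) and ftz (adjusted p = 0.00078, likelihood ratio tests), against 9.87% of all probe sets. Line means of Doc1 lay between 5.43 in P07 and 5.68 in H09 in females, against 6.83 in P18 and 7.75 in P50 in males. The 4 samples of P50 had 5.60, 5.53, 5.66 and 5.69 in females, against 7.60, 7.77, 7.73 and 7.89 in males. Those of P18 had 5.75, 5.25, 5.60 and 5.32 in females, against 6.98, 7.02, 6.66 and 6.67 in males, so that the male samples of these lines did not overlap and the female samples did. ftz, a homeobox pair-rule gene, was highest in males of H07, with 4.99, 5.19, 5.08 and 4.77, while females of H07 had 3.90, 3.73, 3.82 and 3.92. Leaving out any 1 replicate number left 0 of these calls, and leaving out lines H07 and P22 left Doc1.

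Outside the list, the 20 genes whose within-line deviations in females were closest to the mean of the 32 genes had r between 0.73 and 0.85 in females, against -0.27 to 0.60 in males. They were found by that measure, so that their r is a description. The closest was mira, which encodes an adaptor for cell fate factors in dividing neuroblasts, with r = 0.85 in females, against 0.22 in males. Next came Ptr, a gene related to patched, with 0.81 in females, CG8960 and CG34224 with 0.80 each, and opa, a pair-rule gene of the zinc finger class, with 0.80. Others were dan and danr, a pair of related genes named for the distal antenna (0.78 and 0.77), Tom and Ocho of the Bearded family of Notch pathway regulators (0.74 each), E(spl)m5-HLH, a Notch target (0.73), bib, a neurogenic gene (0.74), nkd, an antagonist of Wingless signalling (0.74), and rib, a BTB factor of tube formation (0.75). The other 7 were Sr-CII, Dtg, link, hll, CG13427, CG4440 and bnb, with r between 0.75 and 0.79.

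Of these 20 genes, 17 had a larger within-line spread in females, against 5.81% of all probe sets. This measure was not used to pick them but comes from the same arrays. A line term in females was called for 0 of them, against 8.36% of all probe sets. CG4440 had female arrays between 3.48 and 8.93 with a within-line SD of 1.75, against male arrays between 3.12 and 3.85 with an SD of 0.15. CG13427 ranged between 4.59 and 9.41 in females (SD 1.40), against 4.20 and 4.89 in males (SD 0.19), and Tom between 4.19 and 7.94 in females (SD 1.15), against 3.57 and 4.32 in males (SD 0.17). The lowest female arrays of these genes thus lay at or near the male values. In sex level 14 of the 20 were higher in females, against 60.9% of all probe sets. Another 3, Ptr, bnb and nkd, were higher in males, against 30.5% of all probe sets.

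**Figure D5:**
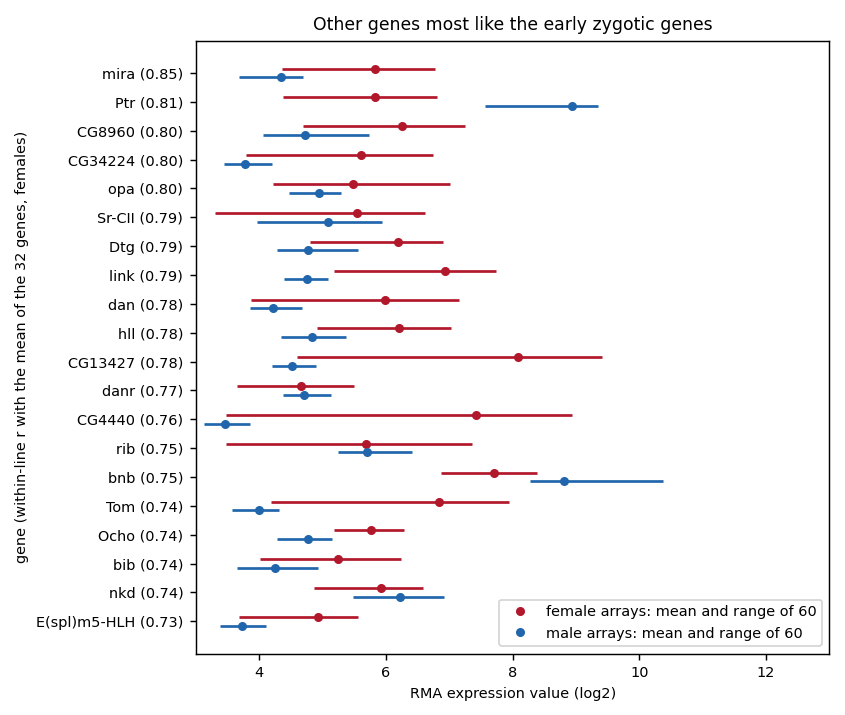
Mean and range of the RMA expression value (log2) over 60 female arrays (red, upper) and 60 male arrays (blue, lower) for the 20 genes outside the list that moved most closely with it, ordered by r (in brackets). The female ranges of CG4440 and CG13427 are the widest drawn, while the male ranges of both genes span less than 1 log2 unit.

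Other gene lists were described in the same way. Of 58 other early zygotic genes, 44 were measured. Their mean followed the mean of the 32 genes in females with r = 0.82. The median r of the single genes was 0.29 in females, against 0.06 in males. In females 8 of the 44 had an r of at least 0.5, against 0.806% of the probe sets outside the 32 genes. They were opa, Tom, bib, slp2 (0.71), pdm2 (0.65), l(1)sc (0.63), dpn (0.62) and Doc3 (0.55). This list was also chosen with earlier results known, and opa, Tom and bib are among the closest genes named above, so that the count is no independent result. The spread was larger in females for 6 of the 44 and larger in males for 0, against 5.81% and 2.92% of all probe sets.

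Marker lists of other tissues were set against the 32 genes too. For the 17 measured maternal and germ line genes the median r of the single genes was 0.26 in females, against 0.15 in males, which is near that of the other early zygotic genes in females. Their list mean had r = 0.36 in females, and the highest single values were 0.45 for smg, 0.42 for zld and 0.40 for CycB. Of the 17, 8 had a larger spread in males, where these genes were lower than in females, against 2.92% of all probe sets. For 14 yolk and eggshell genes the list mean had r = -0.28, and for 13 genes of the late embryonic and larval cuticle, which are used at the end of embryogenesis, it had r = -0.20. For the list means of sperm storage organs, accessory gland, testis, muscle, nervous system and Y chromosome, r lay between -0.17 and 0.004, with elav as the highest single gene (0.40). No gene of these tissue lists, the maternal list included, had an r of at least 0.5 in females, against 0.806% of the probe sets outside the 32 genes. At that share, lists of this size would often hold no such gene, so that the count sets no tissue apart. The mean level of the maternal list per array ranged between 10.63 and 11.19 in females and between 5.07 and 5.83 in males. That of yolk and eggshell ranged between 12.66 and 13.58 in females and between 4.99 and 7.02 in males, and that of the cuticle list between 4.62 and 5.18 in females and between 4.55 and 4.85 in males. The part of any of these tissues in the spread of the early zygotic genes was not tested.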

How the data were processed

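Expression was measured in 120 samples of whole flies on Affymetrix Drosophila Genome 2.0 arrays. The authors computed the deposited log2 values with RMA of the affy package, which corrects background, applies quantile normalisation and gives 1 value per probe set. Versions of both, and whether all arrays were normalised together, are not given in the sources used here. Quantile normalisation can move values of one sex when the sexes differ widely.

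Of 18952 probe sets, 183 controls were left out. Of all 18769 others, 13647 were annotated to 1 gene, 402 to several and 4720 were not listed. Names were updated through Entrez ID (13544 matched), and h is hry in the current annotation. Line, sex and replicate came from the labels. Sequences were not used here.

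Members, lists and tests were chosen with earlier results of these data known. Each probe set was fitted with sex fixed and line and sex by line random, without the batch term of the study's model. P-values of the variance terms came from restricted likelihood ratio tests in closed form, checked against lme4 1.1.37 (60 of 60 within 0.1%). Within-line variances were compared by F tests, and within-line correlations by 100000 permutations. The Benjamini-Hochberg method was used at an FDR of 0.001. Scripts were tested on simulated data. Alternatives were limma 3.58.1, arrays centred on their median, probe sets with a mean under 5 left out, an FDR of 0.05, an exact sign-flip test, Spearman correlation, the other probe set of gt, a replicate block, each replicate number left out and, chosen after seeing the data, lines H07 and P22 left out. Genes were named by rule: the up to 8 with the largest called spread, the 4 largest sex differences each way, the 6 closest pairs, the 3 least like the others and the 20 outside genes most like them. Other genes named were chosen after their values were seen. Arrays have no read depth, and their number limits the precision.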

Additional observations from a re-analysis of the deposited data

Results flagged for a closer look

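In 8 genes with a larger female spread, each line's 4 female samples were searched for a single sample far from the other 3 (Dixon's criterion), over 120 groups. A value stood apart in 14 groups (11.7%), where chance alone flags about 1 in 20. These genes were picked for their female spread, which single far samples enlarge, so that the number is no independent result. Among male samples of the same genes a value stood apart in 4 of 120 groups, and over all 32 genes in 34 of 480 female groups (7.08%) and 22 of 480 male groups (4.58%). Low samples were sna in H12 replicate 3 (4.05, others 5.35 to 5.62), halo in P56 replicate 2 (4.08, others 4.93 to 5.04), D in P22 replicate 4 (5.96, others 6.78 to 6.89), P48 replicate 4 (6.20, others 7.07 to 7.16) and P56 replicate 2 (5.93, others 6.68 to 6.78), and Doc2 in H12 replicate 3 (3.63, others 4.22 to 4.26) and P50 replicate 2 (3.75, others 3.96 to 3.97). High samples were Z600 in H07 replicate 3 (6.03, others 3.51 to 3.92), H10 replicate 2 (4.32, others 3.83 to 3.89) and P26 replicate 2 (4.145, others 3.72 to 3.78), ac in P07 replicate 3 (4.10, others 3.41 to 3.46), Doc2 in P48 replicate 2 (4.34, others 3.89 to 3.96), and hkb in H13 replicate 2 (4.12, others 3.61 to 3.66) and P18 replicate 1 (3.715, others 3.16 to 3.23). H12 replicate 3 and P56 replicate 2 each stood low for a pair of genes, and 0 arrays stood apart for 3 or more of the 8 genes.

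The effect of line differed between females and males for Doc1 (adjusted p = 8.84e-05) and ftz (adjusted p = 0.00078) by the sex-by-line term, a likelihood ratio test. Neither was called when any 1 replicate number was left out, and ftz was not called without lines H07 and P22.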

How the results depend on the processing

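Same-numbered arrays of different lines were more alike than arrays with other numbers (median r of 0.075 against -0.022 in females and 0.12 against -0.042 in males). In females r was over 0.1 for 43.8% of same-numbered pairs, against 17.2% of pairs with other numbers. In males it was over 0.1 for 57.1%, against 13.3%. For female and male arrays of the same line and number the share was 31.7%. The labels tie the numbers to no shared batch or day, and they were not taken as pairs. With the replicate block, 20 genes were higher in females and 11 in males, 5 had a line term in males, 10 a larger female spread and 47 pairs were called, and Sry-alpha lost its spread call (adjusted p = 0.0037, F test). Centring arrays left 7 genes higher in males, gave a median likeness of 0.48 and ended the spread calls of Doc2 and Sry-alpha. Leaving out probe sets with a mean under 5 removed 19 of the 32 genes, among them sna, halo, Z600, ac, hkb, Doc2 and pnr. Of the genes that stayed, 4 were higher in females and 9 in males. Among them 2 had a line term in males, 1 a sex-by-line term and 4 a larger female spread. An FDR of 0.05 gave 1 line term in females, 10 in males and 113 pairs. The exact sign-flip test called 0 spreads at an FDR of 0.001, where it called no probe set of the array, and 8 larger female spreads at an FDR of 0.05. Leaving out replicate numbers in turn gave 1 to 2 line terms in males, 0 sex-by-line terms, 4 to 6 larger female spreads, 0 to 21 pairs and a median likeness of 0.36 to 0.44. Without lines H07 and P22 there were 2 line terms in males, 1 sex-by-line term, 7 spreads and 41 pairs. No direction turned in these settings except those of Dfd and ftz given with the sex differences. Low values, with a mean under 5 for 19 of the 32 genes, limit the small differences most.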
